A study of Mus musculus with 10 samples.

Results

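HEB binding in differentiating mouse cells was compared with and without SB431542 (SB), an inhibitor of the type I receptor kinases for activin, Nodal and TGF-beta. The comparison covers all 29126 regions of 2 deposited lists, 18981 without SB (Endoderm HEB) and 10145 with it (Endoderm+SB HEB), out of 74150 regions in the 5 lists used here. An Endoderm HEB region that shared at least 1 bp with an Endoderm+SB HEB region is called kept, one that shared none is called lost, and an Endoderm+SB HEB region without an Endoderm HEB partner is called gained. By this rule 14185 Endoderm HEB regions (74.7%) were lost and 4796 were kept, and 5327 Endoderm+SB HEB regions (52.5%) were gained. The lost regions were led by regions in AI661453 and Map3k7, at the 5′ end of Cer1, and away from genes. Kept regions lay more often at gene 5′ ends and on SMAD2/3 regions than lost ones, and their order by ChIP height differed between the lists.

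HEB, the product of Tcf12, belongs to the basic helix-loop-helix E proteins and binds E-box DNA (CANNTG) as a homodimer or with a tissue-specific partner such as a proneural factor, and Id proteins block such binding. Activin and Nodal act through type I receptor kinases that phosphorylate SMAD2 and SMAD3, which enter the nucleus and bind DNA with other factors. In embryonic stem cells this pathway drives mesendoderm and definitive endoderm, and cells that lack it tend towards neuroectoderm.

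Per the labels, all cells were of the feeder-free CGR8 embryonic stem cell (ESC) line. Those of the Endoderm and Endoderm+SB groups were differentiated in serum-free medium with N2 and B27 without retinoic acid. The Endoderm groups received 100 ng/ml human Activin A at day 2 and were taken at day 4. The Endoderm+SB group was handled alike and also received 10 µM SB for 48 hours, as the loosely worded labels are read here, so its cells met Activin A and the receptor inhibitor together. Each group had 1 ChIP library, and the Endoderm and Endoderm+SB cells had 1 input library each, so Endoderm HEB and Endoderm SMAD2/3 had one between them. There was no replicate check, no test across samples was possible and no p-value is given. SMAD2/3 was profiled without SB only. The cells are 1 line, and the share of endoderm cells in either culture was not measured by these files. The ESC HEB and ESC+SB HEB lists used below came from undifferentiated cells. Per the labels, the ESC+SB cells received 10 µM SB for a shorter time than the Endoderm+SB cells.

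The Endoderm HEB regions held 5051930 ChIP tags over 11121 kb, and the Endoderm+SB HEB regions 2141712 ChIP tags over 6217 kb. These are tags within listed regions, not library depths, which the files do not give. The median region held 175 ChIP and 15 input tags without SB, and 155 and 18 with SB. Height is the authors' ChIP signal at a region's maximum, and it carries no stated scaling between libraries, so heights of the lists are given side by side and compared by rank. Both lists began at a height of 25.0, with medians of 39.2 without and 34.5 with SB. A lost or gained region is therefore one that was not listed above this height in the other library, and a difference in binding and a difference in depth or ChIP efficiency between these libraries cannot be told apart.

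Promoter sequences of 4 genes with a region at the 5′ end are shown as examples of the classes: Cer1 and Krt8 were lost there, Emx2 was kept and Hes5 was gained. Each is the 250 bases before the transcript start on the gene's strand, from RefSeq on GRCm38.p6, and capitals mark every CANNTG E-box. The windows lie at chr4:82885152-82885401 (Cer1, minus strand), chr15:102004343-102004592 (Krt8, minus strand), chr19:59458440-59458689 (Emx2, plus strand) and chr4:154960673-154960922 (Hes5, plus strand). Region positions elsewhere in the text are in mm9, and the builds were not joined by position.
Cer1: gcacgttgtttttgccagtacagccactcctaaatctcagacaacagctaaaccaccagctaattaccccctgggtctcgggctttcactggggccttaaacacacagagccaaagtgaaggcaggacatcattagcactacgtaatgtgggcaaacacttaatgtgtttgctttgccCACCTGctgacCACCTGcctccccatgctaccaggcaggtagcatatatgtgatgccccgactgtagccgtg
Krt8: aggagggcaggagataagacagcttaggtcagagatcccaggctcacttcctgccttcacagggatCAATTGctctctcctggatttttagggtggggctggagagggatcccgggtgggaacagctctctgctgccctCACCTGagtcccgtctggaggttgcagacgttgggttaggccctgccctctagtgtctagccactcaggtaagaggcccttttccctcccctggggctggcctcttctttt
Emx2: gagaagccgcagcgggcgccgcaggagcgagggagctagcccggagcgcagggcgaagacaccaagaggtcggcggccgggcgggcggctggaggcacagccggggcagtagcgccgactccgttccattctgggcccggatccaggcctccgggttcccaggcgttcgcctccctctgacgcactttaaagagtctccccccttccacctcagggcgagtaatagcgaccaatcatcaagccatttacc
Hes5: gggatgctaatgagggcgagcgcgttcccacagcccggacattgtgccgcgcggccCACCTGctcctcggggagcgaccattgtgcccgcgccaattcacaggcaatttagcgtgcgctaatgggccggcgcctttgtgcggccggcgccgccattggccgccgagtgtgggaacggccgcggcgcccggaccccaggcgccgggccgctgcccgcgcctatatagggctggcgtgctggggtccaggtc
The Cer1 promoter held CACCTG at 72 and at 61 bases before the start, Krt8 held CAATTG at 184 and CACCTG at 111 bases before it, Hes5 held CACCTG at 194 bases before it, and Emx2 held no CANNTG in this window. The same window held none in the lost genes Nodal and Hhex, the kept genes Cfc1 and Id3 and the gained gene Neurog2, so these examples do not give the make-up of a class.

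Promoter-proximal regions here are those at most 1 kb from the 5′ end of a gene listed for them. The motif search used a narrower set, genes whose 5′ end itself lay in a region. A gene with a kept region there was left out of the lost and gained sets. Of genes whose 5′ end lay in a lost, kept or gained region, 369 of 717, 768 of 1371 and 1075 of 1820 had a single RefSeq promoter to search, on both strands. CAGGTG or CACCTG, which are one motif on opposite strands, occurred in 30.9% of the lost promoters (95% interval 26.2 to 35.9%), 17.6% of the kept (14.9 to 20.5%) and 12.7% of the gained (10.8 to 14.9%), against 17.1% of all 22862 genes with a single promoter. The palindromic CAGCTG occurred in 18.2%, 13.3% and 11.3%, against 12.7% of all. CAGATG or CATCTG, again one motif on opposite strands, was less frequent, with 11.9%, 8.85% and 8.93% against 14.6% of all. Any CANNTG, which includes all of these motifs, occurred in 70.7% of lost, 56.1% of kept and 52.1% of gained promoters, against 66.3% of all. CACGTG, the E-box also bound by MYC-family proteins, occurred in 8.94%, 13.3% and 9.49%, against 5.92% of all. The median GC content was 60.8% for lost, 62.2% for kept and 63.6% for gained promoters, against 52.0% for all, and its part in these shares was not tested. A match is a run of letters and not a measured binding site. All intervals in the text are exact Clopper-Pearson 95% intervals and cover counting error only.

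Lost regions lay mostly away from 5′ ends, and kept and gained regions lay at 5′ ends more often. Promoter-proximal regions made up 8.84% of lost (8.38 to 9.32%), 33.6% of kept (32.3 to 35.0%) and 35.6% of gained regions (34.4 to 37.0%). Regions inside a gene and over 1 kb from its 5′ end made up 39.8% of lost, 27.7% of kept and 26.9% of gained regions. Regions with no gene within 1 kb made up 50.3%, 37.6% and 36.7%. The kept share at 5′ ends rested partly on low regions: in the upper 50% of each list by height it was 19.6%, with 7.39% of lost and 26.0% of gained regions there. With lists of equal length promoter-proximal regions were 21.5% of kept and 39.9% of gained regions by height, and 11.5% and 40.8% by tag enrichment. The near-equal shares of kept and gained regions were thus not seen there. Equal length shortens the Endoderm HEB list, so Endoderm+SB HEB regions whose partner was removed count as gained at these settings. The order lost, kept, gained held under all 6 alternatives tried. The kept regions were the widest, with a median of 594.5 bp against 463 bp for lost and 544 bp for gained. Median heights were 38.1 for lost and 42.7 for kept regions in the Endoderm HEB list, and 32.0 for gained regions in the Endoderm+SB HEB list. Kept regions of the Endoderm+SB HEB list had a median of 37.7 and reached 1440, while the highest gained region reached 245. In the Endoderm HEB list the highest lost region reached 1508 and the highest kept region, which was also high in input, 1628.

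**Figure D1:**
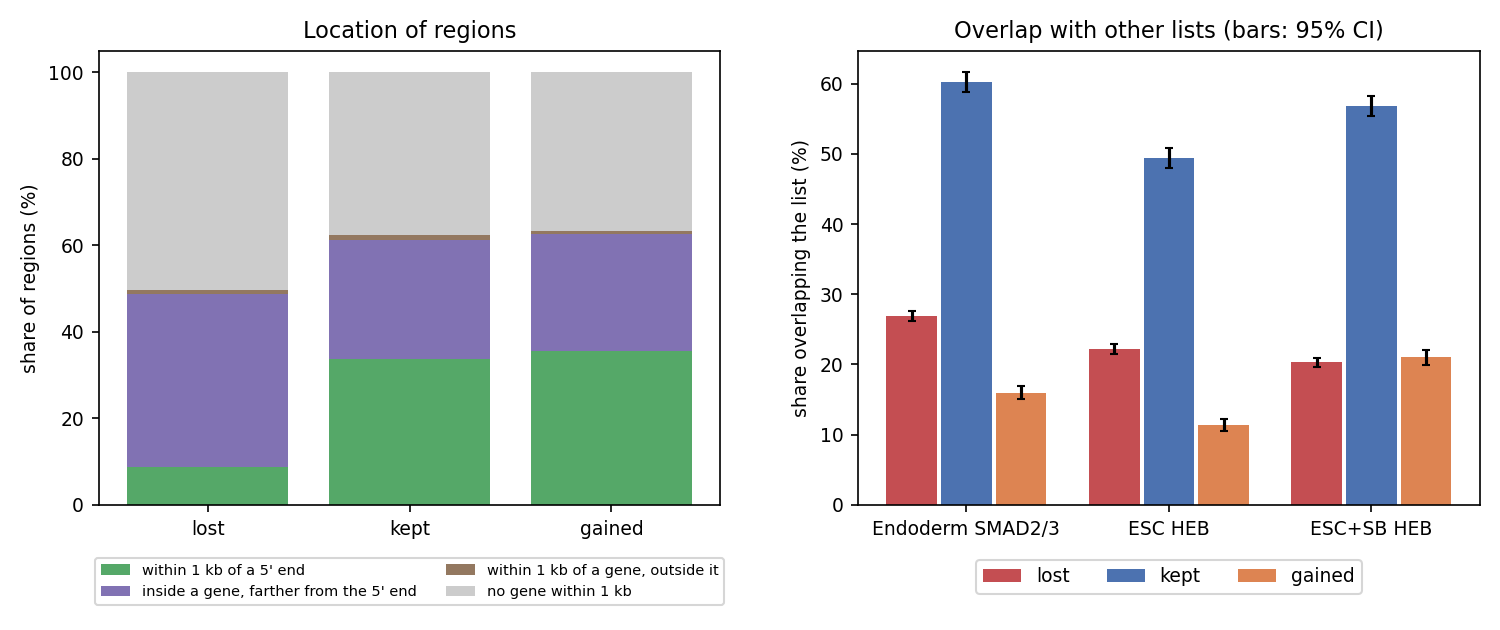
Left, share of lost, kept and gained regions by location (%), stacked to 100%. Right, share of each class overlapping 3 other region lists (%), with exact 95% intervals for counting error. Lost regions have the smallest promoter-proximal part (8.84%), and kept regions overlap Endoderm SMAD2/3 most often (60.2%).

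The 3 classes differed in the other lists they met. Endoderm SMAD2/3 regions were overlapped by 26.9% of lost, 60.2% of kept and 16.0% of gained regions. ESC HEB regions, from undifferentiated cells, were overlapped by 22.2% of lost, 49.4% of kept and 11.4% of gained regions, and the gained value was 19.7% with lists of equal length by height and 25.3% by tag enrichment. ESC+SB HEB regions were overlapped by 20.3%, 56.8% and 21.0%. Gained regions away from 5′ ends met the SMAD2/3 list in 6.91% of cases and the ESC+SB HEB list in 11.2%, while 38.7% of gained promoter-proximal regions met the ESC+SB HEB list. Of kept promoter-proximal regions 84.9% were also ESC+SB HEB regions. No overlap with any of the 3 lists was found for most gained regions, since 30.4% met at least 1 of them, against 80.2% of kept and 43.6% of lost regions.

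Among the 100 highest regions of each class 79 of the lost, 91 of the kept and 2 of the gained lay on an Endoderm SMAD2/3 region. Lost and kept regions were thus closer to each other than over all regions (26.9% and 60.2%), and the gained ones stood further from both. An ESC HEB region was met by 23, 81 and 4 of them. Few of these regions were promoter-proximal, at 5, 5 and 1 of 100. Most of the highest gained regions thus met neither, and 62 of the 100 had no gene within 1 kb.

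The share kept was 56.3% for promoter-proximal Endoderm HEB regions and 19.8% for all others. It was 43.1% (41.9 to 44.3%) for HEB regions on SMAD2/3 regions and 15.5% (14.9 to 16.2%) for those off them, and 43.5% and 16.1% when both were weighted to the same height distribution. Away from 5′ ends the shares were 34.8% on and 12.7% off SMAD2/3 regions. With the Endoderm HEB regions split by height into 5 groups of equal size, the kept share rose with height away from 5′ ends. There 25.9% of regions on SMAD2/3 were kept in the lowest group and 41.2% in the highest, with 9.94% and 19.8% off SMAD2/3. Promoter-proximal regions were kept at 49.8% to 61.0% in each group. In absolute terms 3817 HEB regions on SMAD2/3 were lost and 2887 kept. By chromosome the kept share ran from 17.0% on X (12.6 to 22.1%) to 29.3% on chromosome 4.

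**Figure D2:**
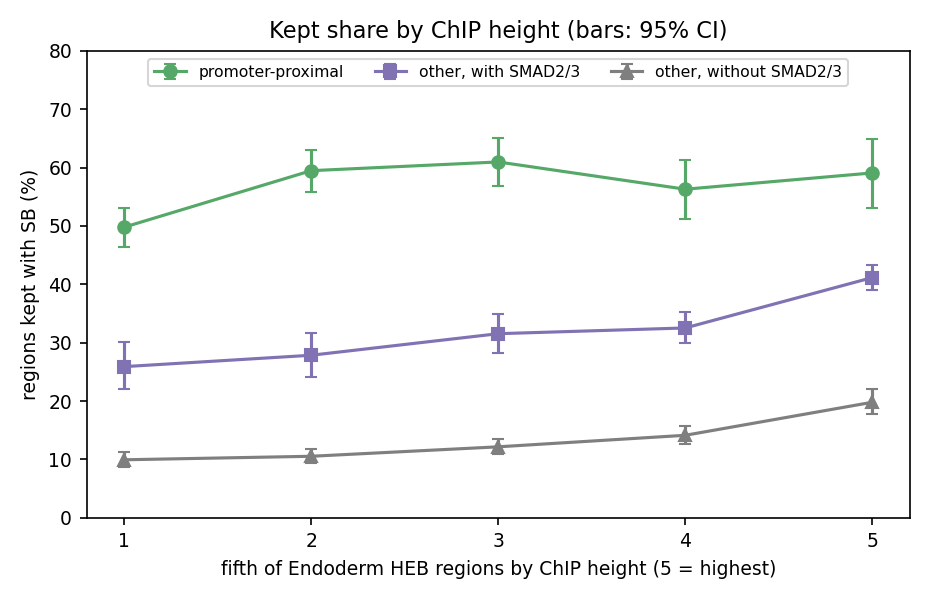
Share of Endoderm HEB regions kept with SB (%) by ChIP height, in 5 groups of equal size from low to high, for promoter-proximal regions and for other regions with or without an Endoderm SMAD2/3 overlap; bars are exact 95% intervals for counting error. Promoter-proximal regions stay between 49.8% and 61.0%, and the other regions are kept more often in the highest group (41.2% and 19.8%) than in the lowest (25.9% and 9.94%).

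Most lost regions had no Endoderm+SB HEB region nearby. An Endoderm+SB HEB region lay within 1 kb of 3.93% and within 10 kb of 19.6% of lost regions, at a median gap of 54.6 kb. For gained regions an Endoderm HEB region lay within 1 kb of 6.27% and within 10 kb of 25.9%, at a median gap of 31.6 kb.

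The highest lost region, at chr1:73162830-73164159 with no gene within 1 kb, had a height of 1508 and was the second highest of the Endoderm HEB list. The next lost regions without a gene were at chr14:21027083-21028075 (height 750) and chr13:20215236-20216265 (732). All of them overlapped Endoderm SMAD2/3 regions and none overlapped an ESC HEB region. In genes, AI661453 led with 1172 at chr17:47599191-47600272, inside the gene, 25603 bp from its 5′ end. Map3k7, which encodes the kinase TAK1 of TGF-beta and stress signalling, followed with 818 at chr4:32094179-32094800, inside the gene. 4921506M07Rik had 637 at chr12:58672316-58674058. Cer1 came next, followed by Arfgap3, an Arf GTPase-activating protein, with 558 at chr15:83174443-83175310. All 5 regions lay on SMAD2/3 regions and off ESC HEB regions.

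Cer1 encodes a secreted antagonist of Nodal, BMP and Wnt made by anterior endoderm. Its region at chr4:82530494-82532746 spanned the 5′ end, reached a height of 622 from 3386 ChIP and 83 input tags, and ranked 26 of the 18981 Endoderm HEB regions. It was the highest lost promoter-proximal region. Others were Tmem184a (331), Ehf (323), an epithelial ETS factor, Lefty1 (306), a secreted Nodal antagonist, and Rab37 (304), a vesicle GTPase.

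The other definitive endoderm markers were also lost, and the neural markers were kept or gained. Foxa2, a pioneer factor of endoderm, had lost regions of 115 across its 5′ end (chr2:147871332-147872943) and 27.3. Sox17, an endoderm HMG-box factor, had lost regions of 38.4 and, at the 5′ end, 35.6. Neurog2, a proneural E-protein partner, had 1 gained region of 26.8, at chr3:127335248-127335836, 227 bp from the 5′ end and near the lowest height listed. Emx2, a forebrain homeobox gene, had a kept region at its 5′ end with heights of 33.1 without and 25.1 with SB, and a gained region of 80.9 at chr19:59540387-59540925, 7207 bp from the 5′ end. In the upper 50% of each list Cer1 and Foxa2 were still lost, and Sox17 and Neurog2 were not listed. Emx2 counted as gained there, since its Endoderm HEB region (33.1) lay below that list's median height of 39.2. A ChIP region says where HEB was listed and does not measure the expression of these genes.

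Genes were counted as kept when at least 1 of their Endoderm HEB regions was kept, lost when they had such regions and none was kept, and gained when they had regions in the Endoderm+SB HEB list alone. Of 5682 genes with an Endoderm HEB region 3051 (53.7%) were lost, and 1987 of the 7669 genes in either list (25.9%) were gained. Lost and gained regions shared a gene in 955 cases, which were 23.5% of the genes with a lost and 30.5% of those with a gained region. For comparison, 4056 of all 7669 genes in either list had a lost region and 3130 had a gained one. Gene length was not taken into account in these counts. Auts2, a neurodevelopmental gene, had the most lost regions (24, with 9 kept and 4 gained), followed by Accn1 and Park2 (16 each), Cdh4 (15) and Nav2 and Sdk1 (14 each). Macrod2, an ADP-ribose hydrolase gene, had the most gained regions (13, with 10 lost and 2 kept), followed by 1700112E06Rik (8), Clybl (7, with 12 lost and 7 kept), Prdm16 (7), and by Ctnna3, Elp4, Msi2 and Ptprm with 6 each. Msi2 and Ptprm also had 12 lost regions each.

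**Figure D3:**
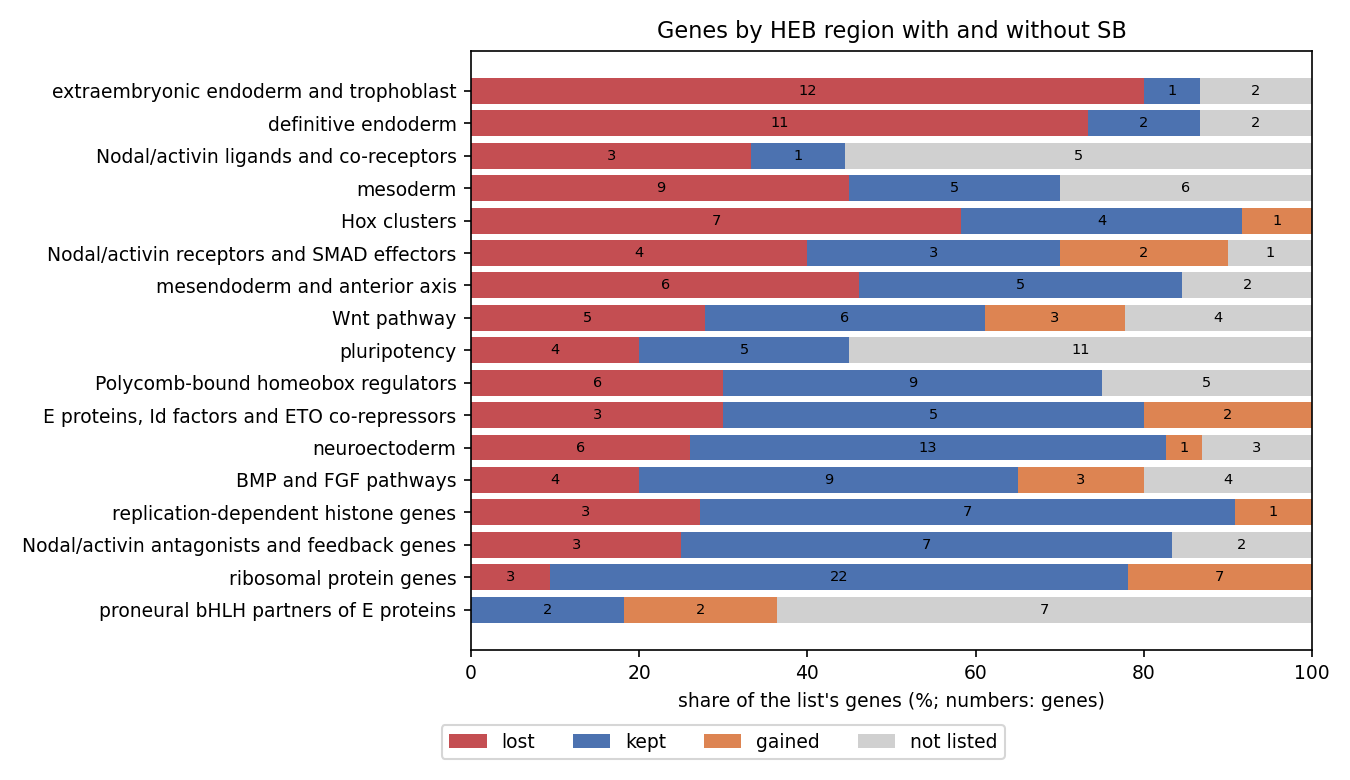
Share of the genes of 17 lists (%) that were lost, kept, gained or not listed; numbers in the bars are genes. Definitive endoderm and extraembryonic genes have the largest lost parts (11 and 12 genes), and 22 of 32 listed ribosomal protein genes were kept.

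Among Nodal ligands and co-receptors 3 of the 4 genes with an Endoderm HEB region were lost (75.0%, against 53.7% of all genes with such a region). The ligand gene Nodal had a region of 85.6 at 927 bp from its 5′ end, the related ligand Gdf3 one of 30.2, and Tdgf1, the co-receptor Cripto, regions of 201 and 30.2. Each of these had no Endoderm+SB HEB region. Cfc1, which encodes the related co-receptor Cryptic, was kept, and its region at chr1:34593171-34594721, 678 bp from the 5′ end, had a height of 1258 from 5400 ChIP tags without SB and 25.9 from 117 ChIP tags with SB. It thus only just stayed in the list. The other 5 genes of the list had no region in either list.

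Receptor and SMAD genes had low regions, with a median of 31.7 over their 12 Endoderm HEB regions. Of 7 genes with such a region 4 were lost (57.1%, close to the 53.7% of all genes), Acvr1c, Tgfbr2, Smad4 and Foxh1, and Foxh1, the DNA-binding partner of SMAD2/3, had the highest of them (101). Smad3 was kept at and near its 5′ end (26.8 and 28.0), while its highest region, 138 at chr9:63598075-63598768, was lost. Tgfbr1 and Smad2 were kept, and the activin receptor genes Acvr1b (27.1) and Acvr2b (30.0) were gained.

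Of 10 antagonist and feedback genes with an Endoderm HEB region 3 were lost (30.0%, against 53.7% of all genes), Cer1, Lefty1 and Pmepa1, and 7 were kept. Pmepa1, an inhibitor of SMAD signalling, lost all 5 of its regions (38.9 to 72.9). The kept genes included Smad7, the inhibitory SMAD, whose 5′ region had 46.5 without and 39.6 with SB, and Skil, a SMAD co-repressor, with 81.2 and 26.3. The co-repressor genes Tgif1 (29.6 and 34.7) and Tgif2 (31.4 and 61.2) were also kept at their 5′ ends. By regions 14 of 21 were lost (66.7%), against 74.7% of all Endoderm HEB regions. Many of the kept ones were low: in the upper 50% of each list 1 of 6 genes with an Endoderm HEB region was kept and 5 were lost. Of all genes with such a region 67.7% were lost at that setting.

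Definitive endoderm genes were mostly lost. Of the 13 with an Endoderm HEB region 11 were lost (84.6%, against 53.7% of all genes), and 22 of their 24 regions were lost (91.7%). Their median height was 59.1, against 39.2 over all Endoderm HEB regions. The highest lost regions were those of Gata4 (168), Prdm1 (149), Foxa2 (115) and Cldn6 (91.9). Gata4, an endoderm GATA factor, counts as kept because its wide 5′ region (84.5) overlapped a region of 29.2, while its other 3 regions were lost. Foxa1 was kept 5911 bp from its 5′ end (95.4 without and 31.4 with SB) and lost at the 5′ end (48.7). Gata6, Hhex, Hnf4a, Foxa3, Cxcr4, Trh and Epcam were all lost, with heights from 25.2 for Foxa3 to 75.4 for Gata6. With both lists at equal length by height, 7 of 9 were lost, against 56.1% of all genes with an Endoderm HEB region there.

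Extraembryonic endoderm and trophoblast genes, a class of other cells the culture could hold, showed a similar count. Of 13 with an Endoderm HEB region 12 were lost (92.3%), and Cubn, a yolk sac endocytic receptor gene, was kept. The simple epithelial keratin gene Krt8 had the highest lost region (177, at chr15:101835710-101836355), with a second at its 5′ end (42.9), followed by Cdx2 (60.8), Sparc (42.4) and Dab2 (40.6). The median height of the regions was 33.1, so these were mostly low regions. In the upper 50% of each list 4 of 4 genes were lost, against 67.7% of all genes with an Endoderm HEB region there. Col4a1 and Col4a2 share 1 lost region at a common 5′ end, counted once for each. Sparc and Col4a1 also had a gained region (29.2 and 30.9).

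Mesendoderm and mesoderm genes included both lost and kept ones, beside 53.7% lost over all genes. In mesendoderm 6 of 11 genes were lost (54.5%), with Cer1, Wnt3 (7 regions, up to 89.6), Dkk1 (50.1) and Mixl1 (49.1) the highest. Eomes, a T-box regulator of endoderm entry, kept its region 8086 bp from the 5′ end (239 without and 79.0 with SB) and lost the one near its 5′ end (31.0). Otx2 (162 and 52.7), Lhx1 (132 and 30.3) and Gsc (56.0 and 36.5) were kept at their 5′ ends, and Frzb, a secreted Wnt antagonist, had a kept region of 113 without and 161 with SB. In mesoderm 9 of 14 were lost (64.3%), led by Kdr (104) and Runx1 (9 regions, up to 94.7). Snai1, a repressor of epithelial genes, had the highest kept region of that list (448 without and 67.1 with SB).

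**Figure D4:**
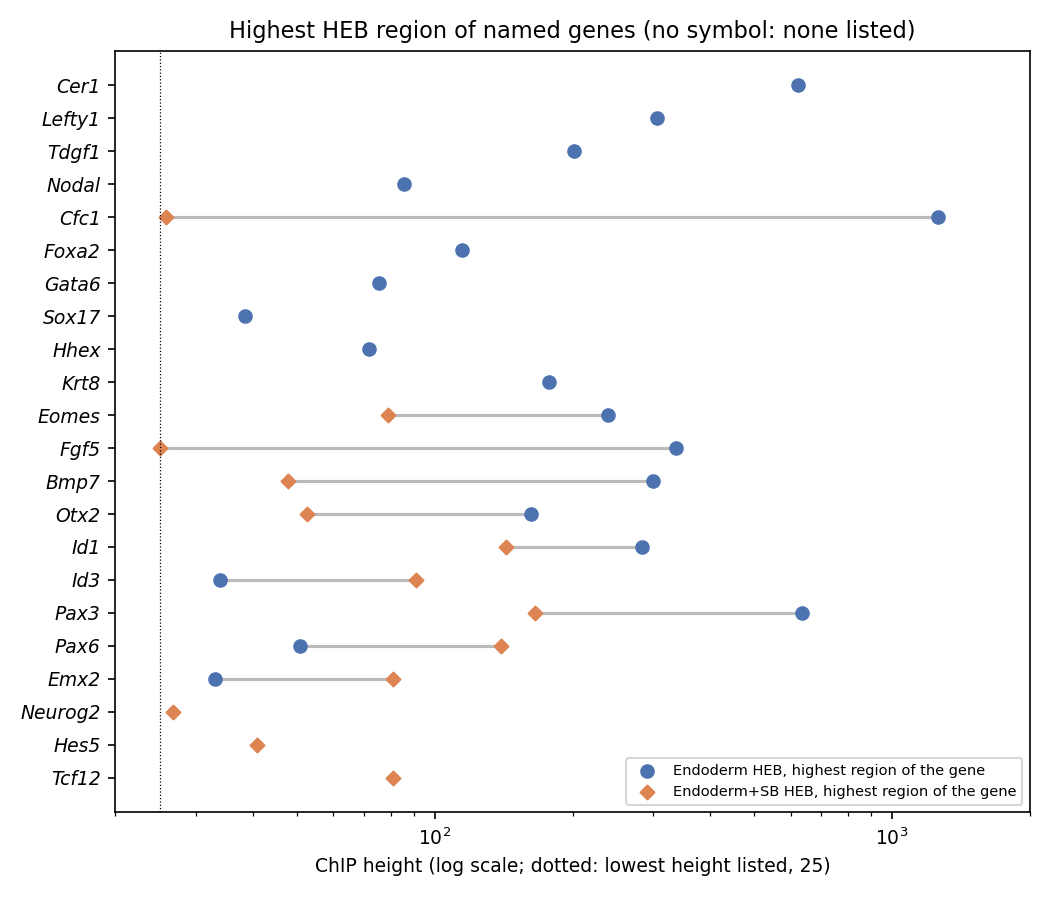
Highest ChIP height of any HEB region of 22 genes (log scale), without SB (circles) and with SB (diamonds); a missing symbol means that no region was listed, and heights are not scaled between libraries. Cer1, Lefty1, Tdgf1, Nodal, Foxa2, Gata6, Sox17, Hhex and Krt8 have circles only, and Neurog2, Hes5 and Tcf12 diamonds only.

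Neuroectoderm genes were kept more often than lost over the whole lists. Of 19 with an Endoderm HEB region 6 were lost (31.6%, against 53.7% of all genes) and 13 were kept. In the upper 50% of each list 6 were lost and 6 kept, where 67.7% of all genes with an Endoderm HEB region were lost. With region centres within 200 bp 9 were lost and 10 kept, where 58.3% of all such genes were lost. By regions 25 of 52 were lost (48.1%, against 74.7% overall). Pax3 kept 7 of 8 regions, the highest with 635 without and 165 with SB, and gained 1 (63.5). Pax6, a neural and eye regulator, had a kept region of 49.0 without and 140 with SB, at chr2:105526613-105530014. Pax7 kept 5 of 9 regions, up to 99.7 without SB, and lost its highest (121). Otx1 (109 and 59.5) and Zic2 (106 and 54.6), a pair of forebrain and neural plate regulators, were kept. Of the lost genes Msx1 (52.9), Six3 (50.9) and En2 (46.1) had the highest regions. Hes5, a Notch effector, was the 1 gained gene of this list, with a region of 40.9 over its 5′ end (chr4:154334520-154335422).

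Proneural partners of E proteins had few HEB regions in either list. Of 11 genes 2, Neurod1 (34.4 without and 40.1 with SB) and Atoh1 (30.2 and 27.4), were kept, and none was lost. Neurog1 (2 regions, 36.0 and 25.7, both with SB) and Neurog2 (26.8 with SB) were gained. Over all genes, 53.7% of those with an Endoderm HEB region were lost and 25.9% of those in either list were gained. So few proneural genes were listed that their counts say little beside these shares. In the upper 50% of each list Neurog1 and Neurod1 counted as gained, none was kept and Neurog2 was not listed. Neurod1 changed class there because its height of 34.4 lay below the Endoderm HEB median of 39.2. Its 40.1 lay above the Endoderm+SB HEB median of 34.5. Over all genes 1101 were gained at that setting, beside 2002 lost and 954 kept. The other 7 were not listed.

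Tcf12, which encodes HEB, had no Endoderm HEB region and 6 gained regions of 25.7 to 81.2, the lowest at the 5′ end and the highest at chr9:71745303-71745625, inside the gene. Tcf3, which encodes the E protein E2A, gained 1 at its 5′ end (33.7). Id1, an inhibitor of E proteins, kept a region 785 bp from its 5′ end with 148 without and 143 with SB, kept another with 284 and 59.8, and lost one of 78.5. Id3 had 33.8 without and 91.1 with SB over its 5′ end. Other members went the other way: Id2 was kept with 68.0 without and 27.2 with SB, and Id4 was lost (25.3). Tcf4 kept 1 of 5 regions, and its greatest height was 75.0 without and 34.8 with SB. With the ETO-family genes included, 3 of 8 genes with an Endoderm HEB region were lost (37.5%, against 53.7% of all). Of the 10 members 2 were gained, against 25.9% of all genes in either list. The ETO-family co-repressor genes, whose products bind E proteins, were lost for Runx1t1 (4 regions, up to 72.1) and Cbfa2t3 (4 regions, up to 86.4), and Cbfa2t2 was kept with 305 without and 42.0 with SB.

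The other lists are read against the 53.7% lost of all genes with an Endoderm HEB region. Pluripotency genes were lost for 4 of 9 such genes (44.4%), Esrrb, Nanog, Utf1 and Tdh. Pou5f1 lost regions of 96.5 and 32.6 and kept one (49.7 without and 31.1 with SB), and Sall4 kept all 4 of its regions. Wnt pathway genes were lost for 5 of 11 (45.5%), led by Lef1, the Wnt-responsive HMG factor (12 regions, up to 111), and gained for Wnt3a (85.3), Axin2 (30.3) and Wnt7b (27.3), the last with a region that overlapped an Endoderm HEB region not listed for that gene. BMP and FGF genes were lost for 4 of 13 (30.8%), Hox genes for 7 of 11 (63.6%) and Polycomb-bound homeobox genes for 6 of 15 (40.0%). Ribosomal protein genes were lost for 3 of 25 (12%), the smallest share among lists with over 10 such genes, and their regions had a median of 31.4. This count rests on low regions: in the upper 50% of each list 1 was lost, 1 kept and 10 gained, and with lists of equal length 4 were kept by height and none by tag enrichment. Replication-dependent histone genes were lost for 3 of 10 (30.0%), with Hist1h1d at 118 without and 102 with SB. The Hox, ribosomal protein and histone lists hold only members found in the files, so how many of their members were listed carries no information.

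The regions gained with SB were led by genes of varied function. Msi2, an RNA-binding protein, had the highest (245, chr11:88398428-88399369), followed by Plekhm3 (243, chr1:64962406-64964039), Lrba, with 217 and 210, Zfhx4, a zinc finger homeobox gene (207, chr3:5236123-5236900), and Wnt5b, a Wnt ligand (202, chr6:119441500-119443502). All of these lay inside the genes, over 1 kb from their 5′ ends, and none overlapped an Endoderm SMAD2/3, ESC HEB or ESC+SB HEB region. Without a gene, the highest were chr14:13169822-13171151 (230), chr7:56951500-56952448 (229) and chr5:13313921-13314531 (203). Lin28, which blocks let-7 processing, had a gained region of 201 at chr4:133558404-133559332, beside 4 kept regions. Gained promoter-proximal regions were lower, with Zfpm1, the GATA cofactor FOG1, at 141 the highest.

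Kept regions were ranked over the 4635 pairs in which each region overlapped exactly 1 region of the other list. The ranks were only loosely related, with a Spearman rho of 0.36 for height and 0.62 for tag enrichment. These are descriptions over pairs that share their libraries and positions. Tag enrichment is the authors' ratio of ChIP to input tags in a region. Where input tags were few it could lie below the ratio of the listed counts, as in Meg3 (12.9 from 92 ChIP and 5 input tags without SB). Of the 20 highest pairs without SB 3 were among the 20 highest with SB, of the 100 highest 22, and of the 500 highest 160. With the ranks of each list split into 5 groups of equal size, 1400 pairs (30.2%) were in the same group in both, 97 went from the highest group to the lowest, and 74 the other way.

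Promoter-proximal pairs ranked low in both lists, with a median rank of 3195 without and 2835 with SB (rank 1 is the highest). Pairs away from 5′ ends and on SMAD2/3 regions ranked high without SB (median 1311.5) and lower with SB (1706). Pairs away from 5′ ends and off SMAD2/3 went from 2478 to 2236. By height, kept regions on SMAD2/3 away from 5′ ends thus had a lower place with SB than without it. Each of these groups had a median rank nearer the middle rank of 2318 with SB than without it. With ranks so loosely related, a group ranked high in either list tends to lie nearer the middle in the other. An effect of SB particular to SMAD2/3 regions cannot be told apart from this and was not tested.

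The highest kept region was the same in both lists, at chr17:39979859-39983423 (Mir715; 1628 without and 1440 with SB), but its input height of 172 was also high, and 6 regions in each list had an input height over 25. The next genes by rank without SB, Cfc1, Gse1 and Tet3, ranked lower with SB, and they were picked for their height without SB. Cfc1 went from rank 2 to 4433, Gse1 from 3 (1092) to 327 (104), Tet3, a methylcytosine dioxygenase, from 5 (984) to 2361 (37.3). Lmx1b, a LIM homeobox gene, had 949 without and 60.0 with SB and was not among the ranked pairs. Without a gene, the leading kept regions were chr18:55929478-55930250 (1007 and 54.7), chr5:141058718-141060473 (939 and 193) and chr11:12428657-12429452 (832 and 25.2). The highest pairs with SB included Cadps, a vesicle-release factor (45.0 without and 398 with SB, rank 2145 to 5), Zbtb16, the zinc finger repressor PLZF (163 and 387, rank 343 to 6), Tssc1 (514 and 366) and Iqgap1, a cytoskeletal scaffold (762 and 357, rank 10 to 8).

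Shifts in rank are named here only for kept pairs with a gene listed. A pair without a gene, at chr11:12428657-12429452, fell further than all of these, from rank 7 to 4589. The largest falls with a gene included regions of a pair of growth factor genes. Fgf5, a marker of the primed epiblast, fell from rank 72 to 4626 (338 without and 25.0 with SB, chr5:98684617-98685434). Bmp7, a BMP ligand, fell from 102 to 4559 (300 and 25.3), and Cfc1 followed, then Aff1, a transcription elongation factor (rank 97 to 4432), and Sh3pxd2a (249 to 4547). The largest rises were at Sox5, a SOX-family factor (rank 4600 to 344; 25.2 without and 101 with SB), Dmrt1, a gonadal DM-domain factor (4233 to 243; 26.7 and 118), the imprinted RNA Meg3 (4297 to 324; 26.4 and 105), Cacna2d1 (4409 to 445) and Dner (4432 to 477). Of the 5 falls 4 lay on SMAD2/3 regions, Bmp7 being the exception, and none of the 5 rises did. For comparison, 2781 of all 4635 pairs lay on SMAD2/3 regions, as did 91 of the 100 highest kept regions. A link between SMAD2/3 and the shifts was not tested. The named pairs were picked for their shift, and the rises began, and the falls ended, near the lowest height listed.

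**Figure D5:**
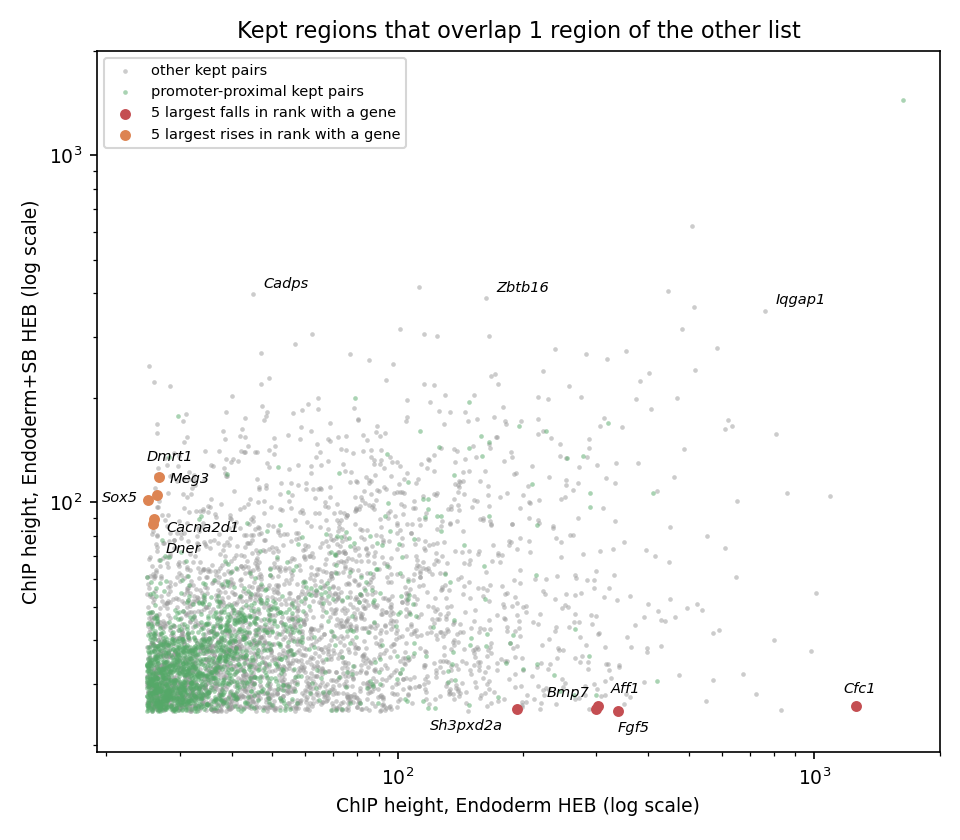
ChIP heights of the 4635 kept pairs without SB (x) and with SB (y), both on log scales and not scaled between libraries; green points are promoter-proximal. Promoter-proximal pairs crowd near the lower limit of 25 in both lists, Cfc1 stands at 1258 and 25.9, and Cadps at 45.0 and 398.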

How the data were processed

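HEB and SMAD2/3 were profiled in CGR8 cells by ChIP-seq, the sequencing of immunoprecipitated chromatin. Build mm9 and CASAVA 1.8.2 are named in the submitters' processing notes. The peak caller, aligner and annotation were each not given in the sources used here. For each ChIP library the authors deposited 1 region list. Per the file headers, each region has the count of ChIP and of background tags, the height of the ChIP signal and of the background signal, and a ratio of tags (tag enrichment), with no scaling stated. Genes are listed by the authors where a region lies in or within 1 kb of them.

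Each region was counted once and 2 chrM regions were left out. Lists were compared by overlaps of at least 1 bp (Python 3.11.15, pandas 2.3.3, scipy 1.17.1), with code tested on simulated lists. Heights were ranked over pairs of regions that overlap only each other. Gene names matched a GRCm38.p6 RefSeq table for 7599 of 7669 symbols (99.1%). Named genes are, in each class, the 5 with the highest regions, with the 3 highest regions without a gene. The 5 largest rank shifts each way among pairs with a gene and the 5 genes with most lost or gained regions are also named. From each gene list and class up to 4 members of highest height are named, with other members where a count needed them. Members, lists and rules were chosen with earlier results of these data known, and 1 gene each of the endoderm and proneural lists is not reported here and was left out of their counts. The alternatives were another overlap rule, stricter or equal-length lists, ranking by tag enrichment, and chrM kept in. The column headed as a q-value was not used.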

Additional observations from a re-analysis of the deposited data

Results flagged for a closer look

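The Endoderm+SB HEB list held 2 regions on the mitochondrial chromosome, which were left out of the comparison, and the Endoderm HEB list held none. The first began at position 1 and held 73905 ChIP and 31743 input tags, a tag enrichment of 2.33. The second began at position 10922 and held 69118 ChIP and 27409 input tags, a tag enrichment of 2.52. Both are below the median tag enrichment of 9.33 of the other regions of that list, and no gene result rests on them.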

How the results depend on the processing

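No share, difference or rho changed direction, and requiring 50% of the shorter region or keeping chrM in left them close to the values reported. With region centres within 200 bp, the kept share was 22.2%, the gained share 58.5%, the promoter-proximal share of lost regions 10.2% and the difference in kept share on minus off SMAD2/3 23.0 points, against 27.5 points as reported. With the upper 50% of each list, these values were 20.2%, 62.0%, 7.39% and 18.8 points, the promoter-proximal share was 19.6% of kept and 26.0% of gained regions, rho was 0.29 and 7.22% of gained regions met ESC HEB. With lists of equal length by height they were 28.2%, 71.4%, 5.92%, 24.5 points, 21.5%, 39.9%, 0.24 and 19.7%. With equal length by tag enrichment they were 21.0%, 78.7%, 4.05%, 22.4 points, 11.5%, 40.8%, 0.20 and 25.3%. Equal length removes regions from the longer list, so more regions count as gained. Ranking by tag enrichment gave a rho of 0.62. The share of genes lost ran from 53.7% to 68.1%. Ribosomal protein genes were kept for 22 genes as reported and for none with equal length by tag enrichment, where 29 were gained. No paired analysis was possible because each group had 1 ChIP library. Without replicates, and with unscaled heights and unknown library depth, no difference here has an error beyond counting.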
